A study of Homo sapiens with 9 samples.

Results

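Metallothioneins were followed here through the 13 transcript clusters (probe sets that each cover a transcript region) whose annotation holds MT1A, MT1B, MT1E, MT1F, MT1G, MT1H, MT1X, MT2A, MT3 or MT4, out of 25679 clusters with values. All 10 symbols had at least 1 cluster: MT2A had 3, MT1X had 2, of which 1 also carries the pseudogene name MT1IP, and the others had 1 each. The cells were HEK293, an established human embryonic kidney line, collected 72 h after transient transfection with MBD-VP16, with Aire or with the empty expression vector (PCMV). Each group held 3 arrays labelled as biological replicates, 9 in all. All 3 groups went through the same plasmid transfection with a commercial reagent, so none of them shows untransfected cells, and each array averages over cells that did and did not take up plasmid. A change in the number of expressing cells and a change in RNA per cell therefore cannot be told apart. MBD commonly abbreviates methyl-CpG-binding domain, VP16 is an activator of transcription from a virus, and AIRE is the autoimmune regulator that drives tissue-restricted genes in the thymus. The labels do not spell out the constructs.

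Metallothioneins are small cysteine-rich proteins that bind zinc, copper and cadmium and buffer free metal in the cell. Their genes are switched on by MTF1, a zinc-sensing transcription factor that binds metal response elements in their promoters, and glucocorticoids and oxidative stress raise several of them too. MT1 and MT2 genes are widely expressed, MT3 is best known from brain and MT4 from stratified epithelium. The genes sit side by side on the long arm of chromosome 16 and resemble each other closely in sequence.

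By the deposited positions, for which no genome build is named in the sources used here, 11 of the 13 clusters lay on chromosome 16 between 56598961 (MT4) and 56718108 (MT1X). MT1G was the 1 of them on the minus strand. The other 2 clusters were named MT2A but placed on chromosome 4, from 69241968 to 69242383 and from 69242041 to 69242226. Both carry cross-hybridisation type 3 in the deposited table, a code for probe sets whose probes may read several sequences, against type 1 for all 11 on chromosome 16. The longer of the chromosome 4 clusters shared 3 of its 10 listed transcripts with the MT2A cluster on chromosome 16 and 4 with the MT1G cluster. Signals of the 13 clusters are therefore not independent measurements of 10 genes, also because probes for one metallothionein may read another.

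Of the 10 members, 5 had a promoter in the RefSeq sequence table used (GRCh38.p14), and the 250 bases before each gene start are printed here, all on the plus strand: chr16:56608334-56608583 for MT2A, chr16:56682220-56682469 for MT1X, chr16:56669564-56669813 for MT1H, chr16:56651636-56651885 for MT1B and chr16:56564823-56565072 for MT4. Capitals mark the core of the metal response element, searched as TGCACNC and TGCGCNC on both strands.
MT2A: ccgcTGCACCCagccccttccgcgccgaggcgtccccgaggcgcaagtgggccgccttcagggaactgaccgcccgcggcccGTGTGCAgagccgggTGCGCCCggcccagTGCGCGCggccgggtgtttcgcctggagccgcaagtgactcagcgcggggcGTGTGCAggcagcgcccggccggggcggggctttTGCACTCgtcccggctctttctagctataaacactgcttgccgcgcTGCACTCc
MT1X: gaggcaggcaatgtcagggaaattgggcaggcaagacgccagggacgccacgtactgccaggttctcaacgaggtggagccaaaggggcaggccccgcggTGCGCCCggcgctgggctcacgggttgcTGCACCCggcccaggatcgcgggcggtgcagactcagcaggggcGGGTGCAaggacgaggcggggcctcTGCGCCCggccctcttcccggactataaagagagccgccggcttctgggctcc
MT1H: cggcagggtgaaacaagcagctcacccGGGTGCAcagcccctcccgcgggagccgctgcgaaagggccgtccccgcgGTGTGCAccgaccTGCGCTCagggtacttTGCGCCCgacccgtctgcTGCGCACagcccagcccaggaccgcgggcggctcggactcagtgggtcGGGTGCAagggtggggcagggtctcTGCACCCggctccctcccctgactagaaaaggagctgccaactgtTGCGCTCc
MT1B: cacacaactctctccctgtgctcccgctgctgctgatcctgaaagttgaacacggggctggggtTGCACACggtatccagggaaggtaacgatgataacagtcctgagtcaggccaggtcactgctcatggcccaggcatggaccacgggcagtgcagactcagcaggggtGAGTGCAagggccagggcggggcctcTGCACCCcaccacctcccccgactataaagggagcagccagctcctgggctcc
MT4: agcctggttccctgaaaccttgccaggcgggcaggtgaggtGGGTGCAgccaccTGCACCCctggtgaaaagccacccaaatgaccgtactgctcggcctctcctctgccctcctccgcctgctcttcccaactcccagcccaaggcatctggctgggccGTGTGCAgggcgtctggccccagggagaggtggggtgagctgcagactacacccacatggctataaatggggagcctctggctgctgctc

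The core was matched 7 times in the MT2A window, 4 times in that of MT1X, 8 times in that of MT1H, and 3 times each in those of MT1B and MT4. Among the 250-base windows of all 35116 promoters in the table, 24.8% held the core at all and 0.37% held it 4 or more times. MT2A, MT1X, MT1B and MT4 also held a TATA box core (TATAAA, gene strand), found in 6.8% of all windows, and MT1H did not. The windows differed in CpG content, the sequence that can carry DNA methylation: 32 CpG dinucleotides in MT2A, 22 in MT1X and in MT1H, 7 in MT1B and 6 in MT4, against a median of 11 over all promoters. A match is a description of the sequence and says nothing of occupancy or methylation in these cells, which were not measured.

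**Figure D1:**
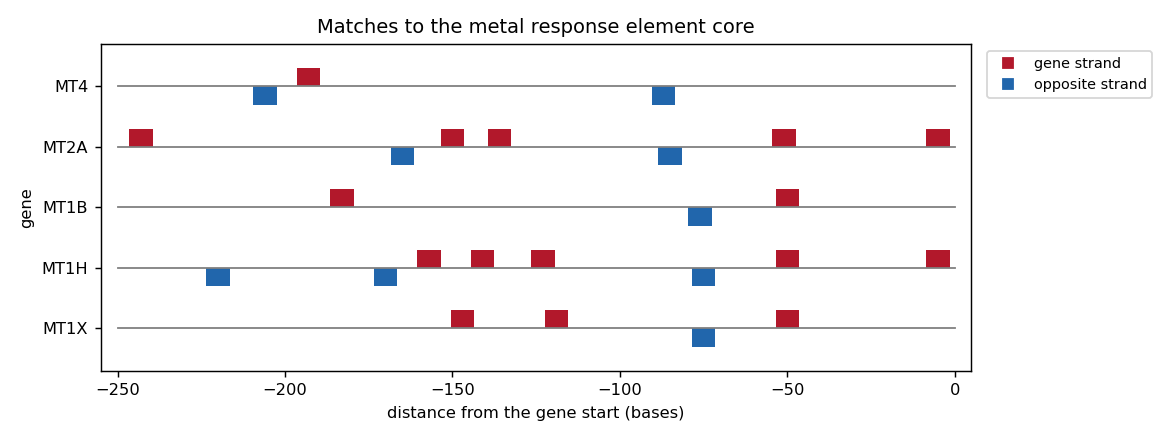
Matches to the metal response element core in the 250 bases before the start of 5 metallothionein genes (x axis, distance from the gene start in bases), red above the line for the gene strand and blue below it for the opposite strand. MT1X, MT1B and MT1H share a match from -53 to -47 on the gene strand, and MT2A has 1 from -54 to -48.

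All 13 metallothionein clusters read higher on average with Aire than with vector, and all 13 also with MBD-VP16, by small amounts. Of all clusters, 55.5% had a difference above 0 with Aire and 50.5% with MBD-VP16. With Aire the log2 differences of the 13 clusters ran from 0.16 to 0.45 with a median of 0.33, while the median over all clusters was 0.03. With MBD-VP16 they ran from 0.07 to 0.64 with a median of 0.28, against 0.00 over all clusters. In each comparison 5 of the 13 clusters rose (limma adjusted p under 0.05 over all clusters) and none fell. The share of all clusters that rose was 1.58% with Aire and 4.75% with MBD-VP16. In 9 of 13 clusters the 3 Aire arrays all lay above the 3 vector arrays, as did 12.3% of all clusters, and the count was also 9 for MBD-VP16, beside 13.2% of all clusters. Both comparisons use the same 3 vector arrays, so they do not count as separate evidence.

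These counts moved with single arrays. Leaving out each of the 9 arrays in turn left 0 to 3 clusters called with Aire, the lowest without Aire replicate 2, and 1 to 4 with MBD-VP16, the lowest without MBD-VP16 replicate 2 or replicate 3. Without vector replicate 1, which lay farthest from its group over all clusters, 2 clusters were called in each comparison. On chromosome 16 alone the count was 3 in each comparison.

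**Figure D2:**
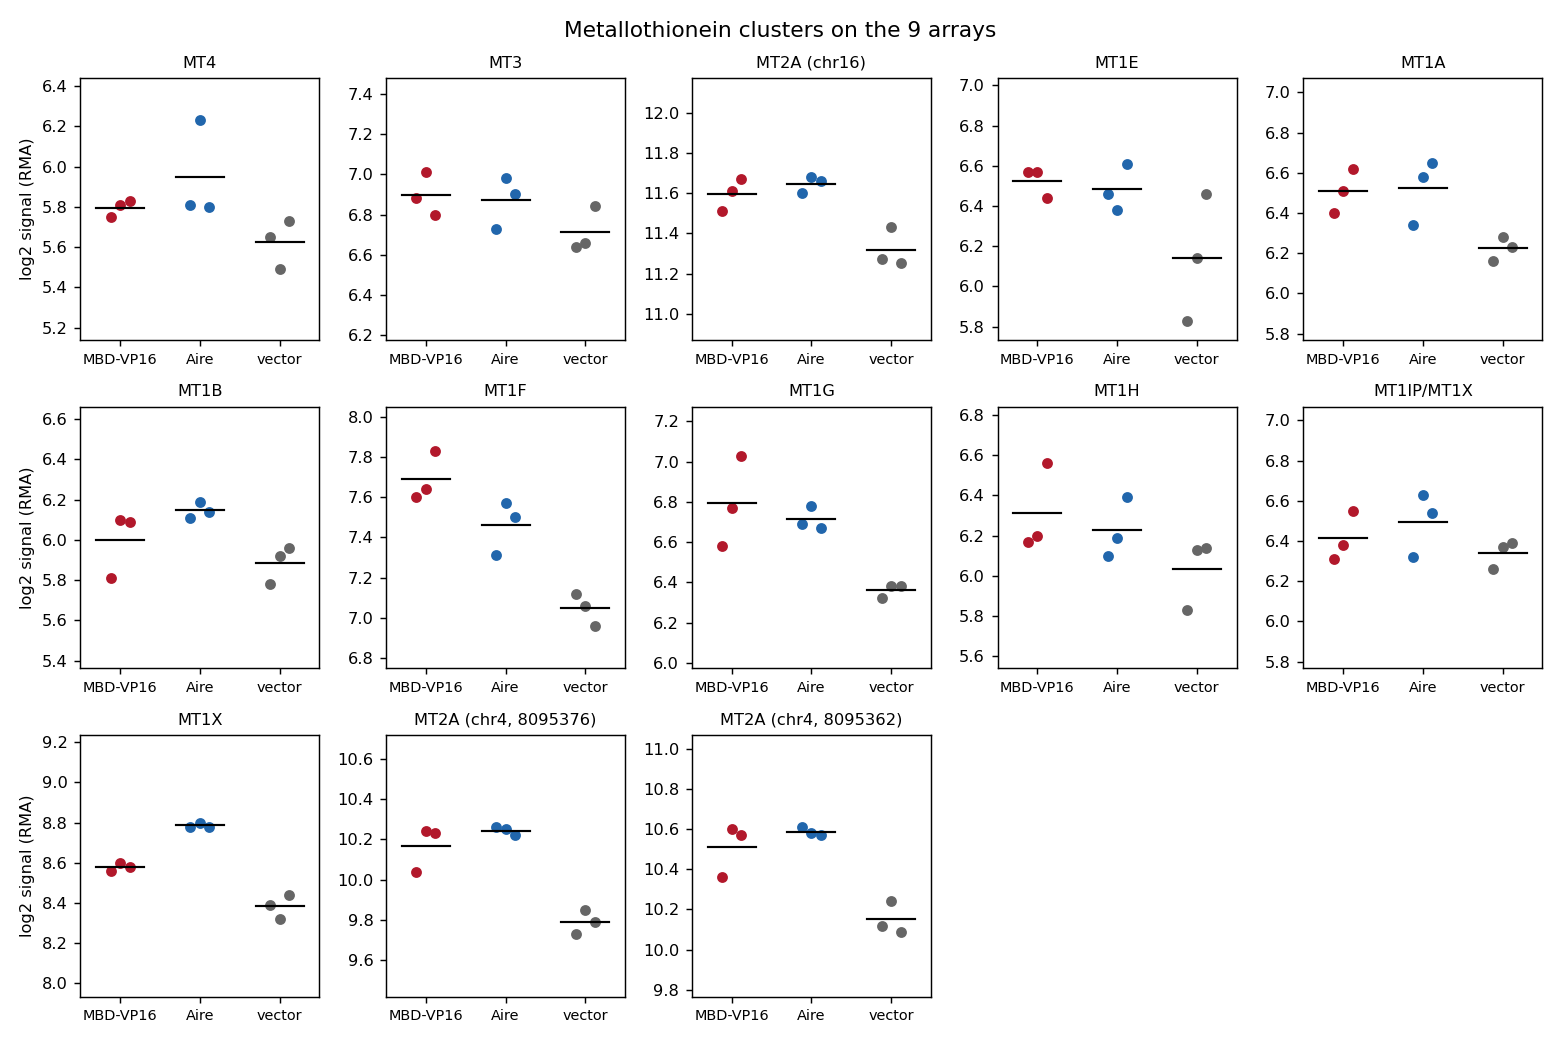
Deposited log2 signal (y axis) of each of the 13 clusters on every array, 1 panel a cluster, with MBD-VP16 in red, Aire in blue and vector in grey, points for arrays and lines for group means; every panel spans the same height on the log2 scale. The MT1X arrays of the 3 groups do not overlap, with Aire highest, and those of MT1F do not overlap either, with MBD-VP16 highest.

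MT2A encodes the most widely expressed metallothionein in human cells. Its chromosome 16 cluster (56642496 to 56643409) read 11.51, 11.61 and 11.67 with MBD-VP16, 11.60, 11.68 and 11.66 with Aire, and 11.27, 11.43 and 11.25 with vector. All arrays of both transfected regulators lay above all vector arrays, and the arrays of the regulators overlapped each other. The log2 difference was 0.33 ± 0.076 for Aire against vector (SE, 1.26-fold, limma adjusted p = 0.0457) and 0.28 ± 0.076 for MBD-VP16 against vector (1.21-fold, limma adjusted p = 0.0499). Both calls were marginal: the first was lost whichever array was left out (adjusted p from 0.0512 to 0.143), and the second was kept only without vector replicate 2 (from 0.041 to 0.154).

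The MT2A clusters placed on chromosome 4 were also higher with both regulators. The longer read 10.04, 10.24 and 10.23 with MBD-VP16, 10.26, 10.25 and 10.22 with Aire, and 9.73, 9.85 and 9.79 with vector. It rose by 0.45 ± 0.074 with Aire (1.37-fold, limma adjusted p = 0.0152) and by 0.38 ± 0.074 with MBD-VP16 (1.30-fold, limma adjusted p = 0.014). The shorter rose by 0.44 ± 0.081 with Aire and by 0.36 ± 0.081 with MBD-VP16 (limma adjusted p = 0.0235 and 0.0255). Over the 9 arrays these clusters correlated at 0.99 with each other, which share 9 of their 10 listed transcripts. The Aire call of the longer cluster was lost without any 1 of the 3 Aire arrays (adjusted p up to 0.0616) and its MBD-VP16 call without MBD-VP16 replicate 2 or 3 (up to 0.0591). For the shorter cluster, vector replicates 1 and 3 joined these arrays in both comparisons, with adjusted p up to 0.0826 and 0.0927.

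MT1X, a broadly expressed MT1 gene (56716393 to 56718108), separated the 3 groups. It read 8.56, 8.60 and 8.58 with MBD-VP16, 8.78, 8.80 and 8.78 with Aire, and 8.39, 8.32 and 8.44 with vector. The Aire arrays stood highest, the vector arrays lowest, and no groups overlapped. MT1X rose 1.32-fold with Aire (log2 difference 0.40 ± 0.060, limma adjusted p = 0.0111). The difference for MBD-VP16 was 0.20 ± 0.060, short of the threshold (limma adjusted p = 0.075). The call with Aire was lost without Aire replicate 2 (adjusted p = 0.0518) and kept without any other array. The cluster named for both MT1IP and MT1X (56710028 to 56711789) had smaller differences in the same direction, and its groups overlapped. Its arrays ran from 6.31 to 6.55 with MBD-VP16, from 6.32 to 6.63 with Aire and from 6.26 to 6.39 with vector. The log2 differences were 0.16 ± 0.099 with Aire and 0.07 ± 0.099 with MBD-VP16 (limma adjusted p = 0.423 and 0.71).

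MT1F (56691855 to 56693212), another MT1 gene, had the largest difference of the 13 clusters with MBD-VP16. It read 7.60, 7.64 and 7.83 with MBD-VP16, 7.31, 7.57 and 7.50 with Aire, and 7.12, 7.06 and 6.96 with vector. Here the MBD-VP16 arrays stood highest, and again no groups overlapped. MT1F rose by 0.64 ± 0.095 with MBD-VP16 (1.56-fold, limma adjusted p = 0.00381), and this call held whichever array was left out (adjusted p from 0.00434 to 0.0173). With Aire it rose by 0.41 ± 0.095 (1.33-fold, limma adjusted p = 0.0457), which each of the 9 left-out arrays ended (from 0.054 to 0.148).

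MT1G, an MT1 gene known to be strongly metal-inducible (56700648 to 56701977), read 6.58, 6.77 and 7.03 with MBD-VP16, 6.69, 6.78 and 6.67 with Aire, and 6.32, 6.38 and 6.38 with vector. Vector arrays lay below all others, and the MBD-VP16 arrays were the most scattered (SD 0.226, against 0.059 for Aire and 0.035 for vector, n = 3 each). The rise with MBD-VP16 was 0.43 ± 0.106 (1.35-fold, limma adjusted p = 0.0356), and it was kept only without MBD-VP16 replicate 1 (adjusted p from 0.016 to 0.0912). The difference with Aire was 0.35 ± 0.106 and did not pass (limma adjusted p = 0.102).

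The remaining clusters passed the test in neither comparison, although every mean lay above that of vector. MT1A read 6.40, 6.51 and 6.62 with MBD-VP16, 6.34, 6.58 and 6.65 with Aire, and 6.16, 6.28 and 6.23 with vector, without overlap between either regulator and vector. Its log2 differences were 0.30 ± 0.097 with Aire and 0.29 ± 0.097 with MBD-VP16 (limma adjusted p = 0.122 and 0.0985). MT1E read 6.57, 6.57 and 6.44 with MBD-VP16, 6.46, 6.38 and 6.61 with Aire, and 5.83, 6.14 and 6.46 with vector. The vector arrays of MT1E were spread (SD 0.315) and reached into both other groups. The log2 differences of MT1E were 0.34 ± 0.144 with Aire and 0.38 ± 0.144 with MBD-VP16 (limma adjusted p = 0.228 and 0.135). Of the 9 fits that left out 1 array, only that without vector replicate 3 called MT1E with MBD-VP16 (limma adjusted p from 0.0272 to 0.291). With Aire none of these fits did (from 0.0581 to 0.454).

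MT1B and MT1H, further MT1 genes of the cluster, had smaller differences: 0.26 ± 0.093 and 0.19 ± 0.134 with Aire, and 0.11 ± 0.093 and 0.28 ± 0.134 with MBD-VP16. The tissue-restricted members MT3 and MT4 differed by 0.16 ± 0.095 and 0.32 ± 0.120 with Aire, and by 0.18 ± 0.095 and 0.17 ± 0.120 with MBD-VP16. MT4, the epithelial form, read 5.75, 5.81 and 5.83 with MBD-VP16, 5.81, 6.23 and 5.80 with Aire, and 5.65, 5.49 and 5.73 with vector. Aire replicate 2 stood above the other 2 Aire arrays there, and without it the difference was 0.18. Limma adjusted p for these 4 genes ran from 0.158 (MT1B with Aire) to 0.51 (MT1B with MBD-VP16). Array signals carry a background that can compress differences of dim clusters. The mean signal of MT4 over the 9 arrays exceeded that of 42.8% of all clusters. That of the MT2A cluster on chromosome 16 exceeded 99.1%. Whether signal level shaped the differences of these clusters was not tested.

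**Figure D3:**
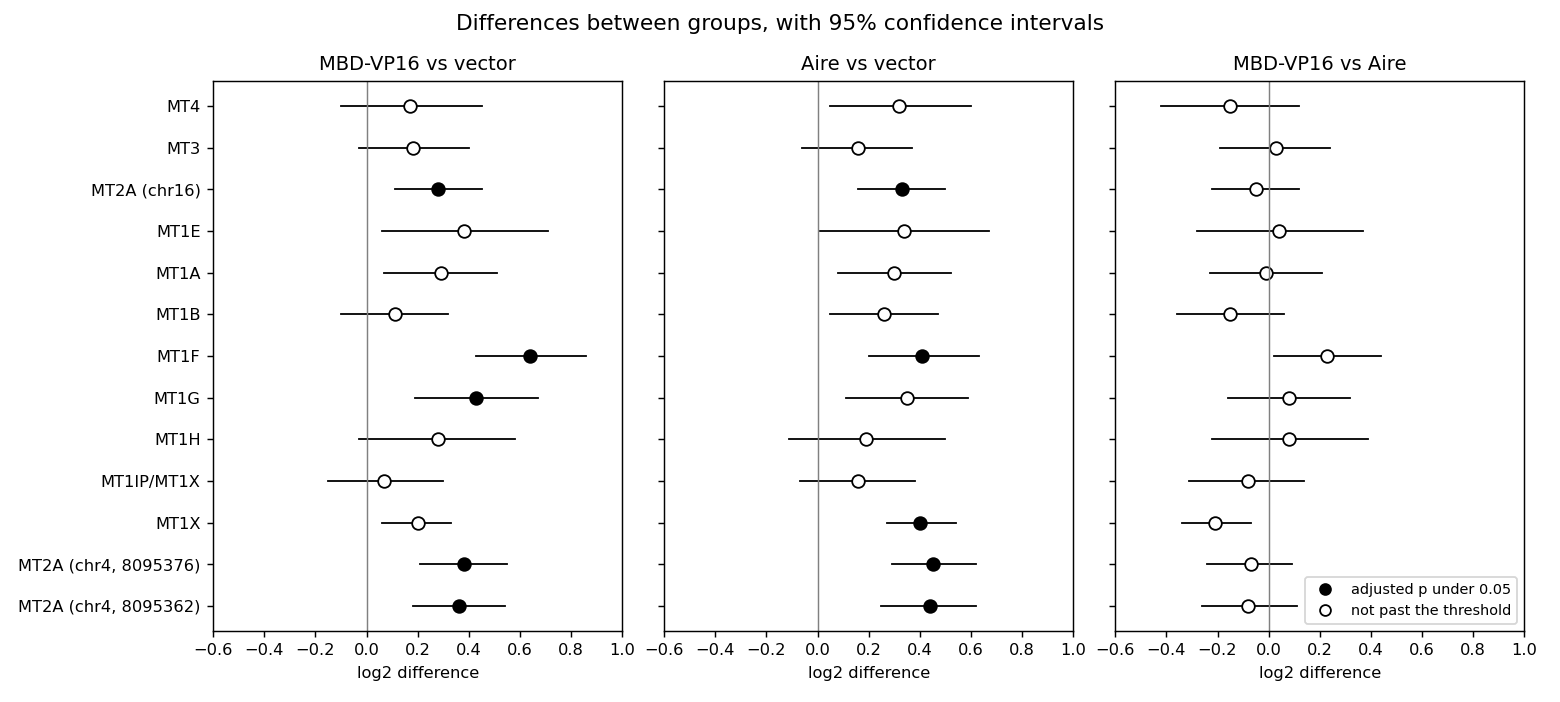
Log2 difference of each cluster (x axis) in the 3 comparisons, with 95% confidence intervals from the fit as lines and filled points for adjusted p under 0.05. Against vector all 13 points of each panel lie right of 0, and the intervals between MBD-VP16 and Aire include 0 for 11 of 13 clusters.

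Set directly against each other, MBD-VP16 and Aire did not differ past the threshold at any of the 13 clusters (limma, 0 called; 2 at an unadjusted p under 0.05, beside 10.8% of all clusters; 0 also in the authors' deposited table at a false discovery rate under 0.05). Of all clusters, 1.8% were higher and 0.074% lower with MBD-VP16 in this comparison. The 2 were MT1X and MT1F, in opposite directions. All MBD-VP16 arrays lay above all Aire arrays at 1 cluster (MT1F), as at 8.41% of all clusters, and below them at 2 (MT1B and MT1X), as at 10.2% of all clusters. MT1X was lower with MBD-VP16 by 0.21 on the log2 scale, with a 95% confidence interval from -0.34 to -0.07 (limma adjusted p = 0.193), and MT1F was higher by 0.23, with an interval from 0.02 to 0.44 (limma adjusted p = 0.42). For the other 11 clusters the interval held 0, and its ends lay between -0.42 and 0.39, so differences of that size between the regulators are not excluded by these arrays.

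MBD-VP16 replicate 1 was the lowest array of its group at 11 of 13 clusters, Aire replicate 1 at 8 and vector replicate 1 at 8. Over all clusters these arrays were lowest, ties included, at 36.9%, 32.1% and 41.6%. The mean over the 13 clusters was 7.58, 7.70 and 7.75 on the MBD-VP16 arrays, 7.62, 7.76 and 7.73 on the Aire arrays, and 7.32, 7.41 and 7.44 on the vector arrays. The lowest regulator array thus lay above the highest vector array in this mean. Over the 9 arrays all 78 pairs of clusters correlated positively (median Pearson r = 0.67, from 0.28 to 0.99), and after removing group means 60 of 78 still did (median r = 0.38, from -0.52 to 0.93). These correlations are a description: the points share arrays, and clusters may share target sequences.

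Among 9077 clusters with 1 gene symbol and an SD of at least 0.15 over the 9 arrays, the 5 whose pattern was most like the mean of the member clusters were OR2S2 (Pearson r = 0.969 over 9 arrays), SPC24 (0.966), GABPA (0.965), PGLS (0.960) and ADAMTS15 (0.957). OR2S2 is an olfactory receptor gene, SPC24 a kinetochore subunit, GABPA an ETS transcription factor whose cluster here is open to cross-hybridisation, PGLS an enzyme of the pentose phosphate pathway and ADAMTS15 a secreted metalloproteinase. With 9 arrays and this many clusters screened, high values are to be found by selection alone.

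Among the genes that sense and move zinc, 1 passed the limma test with Aire and none with MBD-VP16. MTF1, the activator named above, read 7.61, 7.71 and 7.51 with MBD-VP16, 7.51, 7.84 and 7.64 with Aire, and 8.18, 7.88 and 7.96 with vector. Both regulators lay below all vector arrays, as did 15.1% of all clusters with MBD-VP16 and 12.6% with Aire, but neither difference passed the test: -0.40 ± 0.111 with MBD-VP16 (limma adjusted p = 0.0555) and -0.34 ± 0.111 with Aire (limma adjusted p = 0.122). SLC30A1, the zinc exporter that is itself a target of MTF1, read 6.51, 6.80 and 6.72 with MBD-VP16, 6.73, 6.70 and 6.77 with Aire, and 6.75, 6.70 and 6.76 with vector, groups that overlapped. Of 25 measured zinc genes, 1 rose with Aire and none fell, with 6 at an unadjusted p under 0.05, and with MBD-VP16 none passed in either direction, with 4 at an unadjusted p under 0.05. The share of all clusters at that unadjusted level was 20.2% with Aire and 24.8% with MBD-VP16. The riser was SLC39A8, a zinc and manganese importer, at 0.29 ± 0.064 (limma adjusted p = 0.0423), which each of the 9 left-out arrays ended (from 0.0686 to 0.141). The list medians were -0.01 with Aire and 0.01 with MBD-VP16. Of all clusters 1.58% rose and 2.82% fell with Aire, and 4.75% rose and 5.14% fell with MBD-VP16.

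None of 16 measured copper genes passed the limma test with Aire or with MBD-VP16, with 4 and 2 at an unadjusted p under 0.05 (20.2% and 24.8% of all clusters) and list medians of 0.00 and 0.02. ATOX1, the copper chaperone, came nearest with MBD-VP16, at 0.25 ± 0.068 (limma adjusted p = 0.0504).

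Genes of the oxidative stress response driven by NRF2, a programme known to act beside metallothioneins, mostly fell where they were called with MBD-VP16. Of 16 measured, 6 fell and 2 rose, with a list median of -0.23. In this comparison 5.14% of all clusters fell and 4.75% rose. An unadjusted limma p under 0.05 was reached by 11 of the 16, beside 24.8% of all clusters. HMOX1, the haem oxygenase that heavy metals also induce, read 7.85, 7.84 and 8.01 with MBD-VP16, 8.30, 8.24 and 8.13 with Aire, and 8.93, 8.44 and 8.62 with vector. The MBD-VP16 arrays lay lowest and the vector arrays highest, without overlap, and HMOX1 fell by 0.76 on the log2 scale with MBD-VP16 (SE 0.121, limma adjusted p = 0.00549). GCLC and GCLM, the subunits of the enzyme that limits glutathione synthesis, had log2 differences of -0.63 ± 0.099 and -0.51 ± 0.091 (limma adjusted p = 0.00516 and 0.0092). NQO1, a quinone reductase of the same programme, rose by 0.91 ± 0.131 (limma adjusted p = 0.0035), with 6.72, 6.84 and 6.82 on MBD-VP16 arrays, 6.18, 5.96 and 6.30 on Aire arrays and 6.16, 5.68 and 5.81 on vector arrays. The calls for these 4 genes held whichever array was left out, and so did that of SLC7A11, the cystine importer. Of the other called genes of the list, SRXN1 lost its call in 8 of 9 such fits (adjusted p up to 0.13), PRDX1 in 4 (up to 0.0864) and TXNRD1 in 1 (up to 0.0578). With Aire none of the 16 passed the limma test, 4 had an unadjusted p under 0.05 (20.2% of all clusters), and the median was -0.11.

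Of 10 measured glucocorticoid response genes, 1 fell with Aire, and 1 rose and 1 fell with MBD-VP16. The shares of all clusters were 2.82% falling with Aire, and 4.75% rising and 5.14% falling with MBD-VP16. An unadjusted limma p under 0.05 was reached by 3 of the 10 with Aire and 6 with MBD-VP16, beside 20.2% and 24.8% of all clusters. DUSP1, a phosphatase gene that growth factors and stress also induce, dropped to 8.56, 8.77 and 8.70 with MBD-VP16 and to 8.79, 8.84 and 8.76 with Aire, against 9.73, 9.61 and 9.57 with vector. SGK1, a kinase induced by glucocorticoids and osmotic stress, rose by 0.66 ± 0.071 with MBD-VP16 (limma adjusted p = 0.000769). NR3C1, the glucocorticoid receptor itself, read 7.73, 7.77 and 7.79 with MBD-VP16, 7.83, 7.77 and 7.94 with Aire, and 7.98, 7.81 and 7.76 with vector, and the groups overlapped.

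Of the genes next to the metallothionein cluster on chromosome 16 none was called higher. Among all clusters 1.58% were called higher with Aire and 4.75% with MBD-VP16, so a lack of such calls among 11 genes is near those shares. Of 11 measured neighbours none passed with Aire (limma, 2 at an unadjusted p under 0.05, beside 20.2% of all clusters), and with MBD-VP16 none rose and 2 fell: HERPUD1, an endoplasmic reticulum stress gene, with a log2 difference of -0.35 ± 0.082 (limma adjusted p = 0.0295), and OGFOD1, an oxygenase that modifies a ribosomal protein, with -0.34 ± 0.088 (limma adjusted p = 0.0438). Both calls depended on single arrays, with adjusted p up to 0.102 and 0.12 when 1 was left out. With MBD-VP16 5.14% of all clusters fell. An unadjusted limma p under 0.05 was reached by 4 of the 11 neighbours there, beside 24.8% of all clusters. The median of the neighbours was 0.06 in both comparisons.

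**Figure D4:**
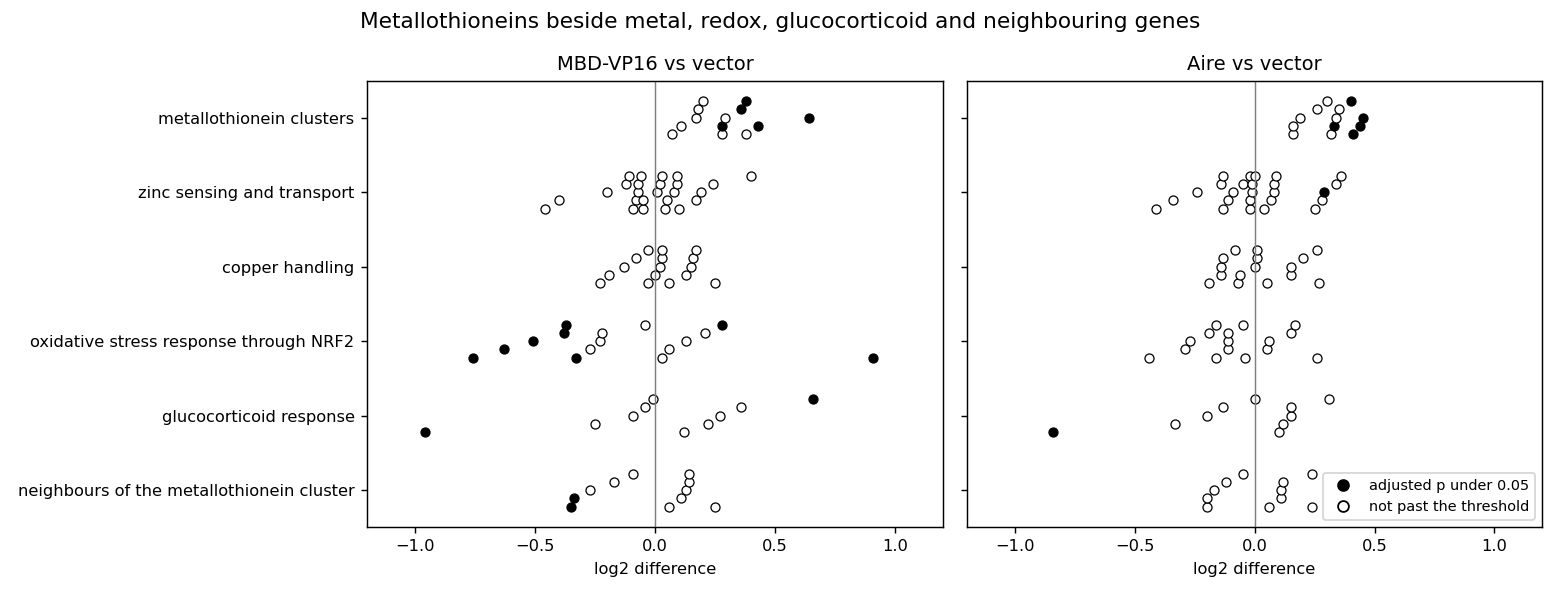
Log2 differences (x axis) of the 13 metallothionein clusters and of the genes of 5 lists, 1 point a cluster or gene, for MBD-VP16 against vector on the left and Aire against vector on the right; filled points have an adjusted p under 0.05, and the vertical offsets only separate points. The metallothioneins lie right of 0 in both, while the other lists lie on both sides of it.

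The array medians ran from 6.11 on vector replicate 1 to 6.23 on MBD-VP16 replicate 2 (log2). Within a group the arrays correlated at 0.9879 to 0.9928, and no 2 arrays held identical values. MBD1 stood higher on the MBD-VP16 arrays, with a mean of 9.96, against 8.19 on the vector arrays, while AIRE read 6.66, 6.57 and 6.76 with Aire and 6.32, 6.52 and 6.46 with vector, short of the threshold (limma adjusted p = 0.213). All 3 Aire arrays lay above the vector arrays for AIRE, as at 12.3% of all clusters. What the MBD1 and AIRE probe sets read of the transfected constructs is not known, so both regulator groups are named by their labels. Of 9 measured kidney and HEK293 markers, 7 lay above the array median with MBD-VP16, 6 with Aire and 5 with vector, against 1 of 5 leukocyte, 1 of 4 fibroblast and 0 of 4 endothelial markers in each group. The summed level of the leukocyte markers ran from 27.6 to 28.2 with MBD-VP16, from 27.7 to 27.8 with Aire and from 27.0 to 28.0 with vector, and that of the fibroblast markers from 21.6 to 22.0, from 21.9 to 22.1 and from 20.9 to 21.8 in the same groups. For endothelial markers the ranges were 16.9 to 17.5 with MBD-VP16, 16.7 to 17.3 with Aire and 16.6 to 17.2 with vector. CD68, a macrophage marker, was the 1 marker of these other cell types that passed, higher with MBD-VP16 (log2 difference 0.64, limma adjusted p = 0.00809), and KRT18, a keratin of the HEK293 list, fell by 0.41 with MBD-VP16 (limma adjusted p = 0.0131) and by 0.38 with Aire (limma adjusted p = 0.0338). The Aire call of KRT18 was lost in 8 of 9 fits that left out 1 array (adjusted p up to 0.115), and its MBD-VP16 call in 1 of 9 (up to 0.0508). Their part in the results above was not tested.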

How the data were processed

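RNA of HEK293 cells was measured on 9 one-colour arrays, 3 per group. The deposited values are log2 signals of transcript clusters with 2 decimals. Per the submitters' processing notes the authors used RMA; its software version is unstated there. A second table holds the authors' log2 fold changes and false discovery rates (p-values adjusted by the authors), per the file headers, whose test is unstated. Its 9 array columns were not used.

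Of 28829 clusters, 3150 held no value and were left out, and 25679 were tested with no filter on signal. With limma 3.58.1 (lmFit and eBayes, R 4.3.3) a linear model with group as its single factor was fitted over the 9 arrays (two-sided, prior 2.93 degrees of freedom, median standard error 0.104). P-values were adjusted by the Benjamini-Hochberg method over all 25679 clusters, at a threshold of 0.05. Each SD is over a group's 3 arrays. Whether replicates were separate cultures is unstated, so a p-value reflects only the spread among arrays, which may be technical, and the number of arrays limits the precision. The fit was tested on simulated data. It missed a first limit set on the share of planted changes called, the limit was then loosened, and most small planted changes were not called.

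Every metallothionein cluster is named. For the other lists, counts are given with up to 4 called genes by adjusted p, and MTF1, SLC30A1, ATOX1, NR3C1, SLC7A11, SRXN1, PRDX1 and TXNRD1 were named after their values were seen. List genes were matched through Entrez identifiers, 1 cluster with a single symbol per gene, that with the highest mean. The members and lists were chosen with earlier results of these data known. No pairing by replicate number was used. Deviations of same-numbered arrays from their group means correlated at -0.069 to 0.135, and those of differently numbered arrays at -0.147 to 0.088.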

Additional observations from a re-analysis of the deposited data

How the results depend on the processing

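For the count of metallothionein clusters called, 5 with Aire against vector and 5 with MBD-VP16 against vector, the following alternatives gave these counts. Each count was 3 with arrays centred on their medians and 1 when only the 2 groups compared were fitted, which leaves fewer samples for the spread. With the replicate number as a block each count was also 3. The labels do not say whether equal numbers pair arrays, and not every array correlated best with its own number. Counting only clusters on chromosome 16, an alternative chosen after seeing the data, gave 3 in each comparison. Leaving out 1 array gave 0 to 3 with Aire and 1 to 4 with MBD-VP16. With repeated quantile normalization each count was 4, among clusters above the median signal 7, and 5 by the false discovery rates of the authors' deposited table. An intensity trend in the variance gave 5 with Aire and 6 with MBD-VP16, and robust variances gave 5 and 4 in the same order. For MBD-VP16 against Aire the count was 0 under every alternative run. The median log2 difference over the clusters stayed positive against vector in all of them. With arrays centred on their medians it was 0.29 for Aire, against 0.33 without centring. Of the log2 differences of single clusters, none that was called reversed. Over all alternatives and all 3 comparisons, 69 of these results lost their call and 7 gained one. Only the 5 clusters called in each comparison with vector could lose a call. The 617 results that kept their side of the threshold include those never called, among them all for MBD-VP16 against Aire. Alternatives for the other gene lists were added after seeing the data.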

Other observations

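Further clusters carry metallothionein names outside the 10 genes above, most of them pseudogenes, and their means also lay above vector with both regulators. All 6 were higher with Aire (median log2 difference 0.34, from 0.12 to 0.40) and all 6 with MBD-VP16 (median 0.32, from 0.10 to 0.40). Among all clusters the difference was above 0 for 55.5% with Aire and 50.5% with MBD-VP16. In each comparison 1 of the 6 passed the test, beside 1.58% of all clusters called higher with Aire and 4.75% with MBD-VP16. That was MT1DP, a transcribed pseudogene between MT1A and MT1B (chromosome 16, 56677599 to 56679162 in the deposited table). It read 7.10, 7.30 and 7.26 with MBD-VP16, 7.30, 7.36 and 7.33 with Aire, and 6.85, 6.99 and 6.94 with vector. Its log2 difference was 0.40 ± 0.075 with Aire (SE, limma adjusted p = 0.0234) and 0.29 ± 0.075 with MBD-VP16 (limma adjusted p = 0.0406). The Aire call was lost without vector replicate 1 or any 1 Aire array (adjusted p up to 0.0867). The MBD-VP16 call was kept only without MBD-VP16 replicate 1 among the 9 fits that left out 1 array (adjusted p from 0.0339 to 0.134), and in the authors' deposited table its false discovery rate was 0.0717.

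MT1L, a pseudogene in most people, read 7.34, 7.39 and 7.58 with MBD-VP16, 7.39, 7.31 and 7.55 with Aire, and 7.23, 7.12 and 7.11 with vector. The arrays of either regulator lay above all vector arrays, as at 12.3% of all clusters with Aire and 13.2% with MBD-VP16. The clusters MT1P2 on chromosome 1 and MT1JP/MT1P3 on chromosome 20 lie outside the family's locus, and their differences were 0.38 ± 0.136 and 0.39 ± 0.130 with Aire and 0.39 ± 0.136 and 0.40 ± 0.130 with MBD-VP16, none past the threshold (limma adjusted p from 0.0882 to 0.156). The cluster for MT1M alone stayed between 3.33 and 3.36 with MBD-VP16, between 3.31 and 3.46 with Aire and between 3.16 and 3.28 with vector. Its mean of 3.32 over the 9 arrays lay far below the array medians of 6.11 to 6.23. Its deposited span, 56642568 to 56667898, also covers the positions of the MT1L and MT1E clusters. Whether these probe sets read their own transcripts or those of the expressed genes was not tested.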
